A study of Mus musculus with 4 samples.

Results

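The regions described here are the accessible start sites of non-coding RNA genes in cultured mouse hippocampal progenitor cells. Of 29121 merged accessible regions, 459 lay on chromosomes 1 to 19 or X, had a non-coding RNA gene as their nearest gene in the authors' annotation, lay within 1000 bp of that gene's start and did not belong to a microRNA-named gene. They carried 457 gene names, since 3110039I08Rik and C130071C03Rik had 2 regions each. The study profiled open chromatin by ATAC-seq, in which the Tn5 transposase cuts and tags DNA that is not packed away, in neurospheres, which are floating clusters of neural progenitor cells. Cells came from the hippocampus of newborn (P0) C57BL/6 mice and grew for 7 days with FGF-2 and EGF at 20 ng/ml each. The 2 control libraries came from hGFAPCre+, Fgf13+/y cells and the 2 Fgf13cko libraries from hGFAPCre+, Fgf13 flox/y cells, so the Cre transgene was present in both groups. Its human GFAP promoter acts in radial glia and the cells derived from them, and the labels do not say what share of cultured cells had recombined. The controls were littermates. No label ties a culture to a mouse, so a p-value here speaks only of how far these samples varied, in part perhaps for technical reasons.

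Long non-coding RNAs are transcripts without a long open reading frame that, like mRNAs, are mostly made by RNA polymerase II from promoters of open chromatin. Many start next to a coding gene and run away from it on the opposite strand, sharing its promoter, and others start alone or within an intron. Some have well-studied roles: Neat1 RNA builds paraspeckles, Kcnq1ot1 and Airn silence imprinted neighbours, Jpx acts in X inactivation, and Snhg genes and Gas5 carry small nucleolar RNAs in their introns. Most RIKEN (Rik) and predicted (Gm) genes have no known function. The measurement is accessibility at a start site, not the amount of RNA. ATAC-seq has no strand, so a region shared by 2 starts cannot be divided between them. In these bulk samples, fewer cells of a type with an open site and less opening per cell cannot be told apart.

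The start windows of 8 members that passed the test are shown first, since the largest changes fell at such sites. They were the members with the smallest p among those away from coding gene ends for which a RefSeq promoter was at hand. Each run covers 250 bases before to 50 bases after the RefSeq start on GRCm38.p6, reads 5′ to 3′ along the RNA's strand, and has in capitals the start base and every match to the motifs named below.
2900052N01Rik, chr9:46913353-46913652, plus strand: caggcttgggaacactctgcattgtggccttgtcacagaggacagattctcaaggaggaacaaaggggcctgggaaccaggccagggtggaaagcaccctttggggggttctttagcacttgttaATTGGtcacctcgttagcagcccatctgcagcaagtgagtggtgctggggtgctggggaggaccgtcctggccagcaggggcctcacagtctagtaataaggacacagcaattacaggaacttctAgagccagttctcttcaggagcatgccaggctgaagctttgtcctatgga
Gm12532, chr3:37182635-37182934, plus strand: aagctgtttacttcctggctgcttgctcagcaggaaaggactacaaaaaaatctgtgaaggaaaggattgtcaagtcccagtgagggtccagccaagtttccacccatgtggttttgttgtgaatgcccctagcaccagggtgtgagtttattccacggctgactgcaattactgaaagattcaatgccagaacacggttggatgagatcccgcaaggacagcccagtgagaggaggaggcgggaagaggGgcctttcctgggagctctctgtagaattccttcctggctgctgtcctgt
4933432K03Rik, chr7:121589787-121590086, minus strand: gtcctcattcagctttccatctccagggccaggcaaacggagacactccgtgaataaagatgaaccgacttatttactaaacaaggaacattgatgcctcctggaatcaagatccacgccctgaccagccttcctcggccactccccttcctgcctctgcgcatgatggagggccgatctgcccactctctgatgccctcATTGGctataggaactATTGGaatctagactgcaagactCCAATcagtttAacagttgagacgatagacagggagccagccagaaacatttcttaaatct
D830013O20Rik, chr12:73409514-73409813, minus strand: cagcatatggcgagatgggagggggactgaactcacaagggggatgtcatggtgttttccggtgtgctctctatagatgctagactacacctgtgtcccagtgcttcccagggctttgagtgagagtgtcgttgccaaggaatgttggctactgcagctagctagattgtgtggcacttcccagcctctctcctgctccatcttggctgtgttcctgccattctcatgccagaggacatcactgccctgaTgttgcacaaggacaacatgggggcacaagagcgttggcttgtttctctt
G630093K05Rik, chr13:47910185-47910484, plus strand: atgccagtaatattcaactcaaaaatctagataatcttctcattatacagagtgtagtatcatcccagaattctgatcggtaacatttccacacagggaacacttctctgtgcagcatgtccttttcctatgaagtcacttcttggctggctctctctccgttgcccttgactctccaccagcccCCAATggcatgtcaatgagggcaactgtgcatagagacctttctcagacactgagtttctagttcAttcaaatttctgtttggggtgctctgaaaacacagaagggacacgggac
LOC100862268, chr3:127161055-127161354, plus strand: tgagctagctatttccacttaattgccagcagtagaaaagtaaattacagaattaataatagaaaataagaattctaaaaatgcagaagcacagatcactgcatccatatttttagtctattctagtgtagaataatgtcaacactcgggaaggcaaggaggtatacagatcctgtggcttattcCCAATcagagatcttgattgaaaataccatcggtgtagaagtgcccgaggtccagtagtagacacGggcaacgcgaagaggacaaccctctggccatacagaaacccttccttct
6330415G19Rik, chr17:23550549-23550848, plus strand: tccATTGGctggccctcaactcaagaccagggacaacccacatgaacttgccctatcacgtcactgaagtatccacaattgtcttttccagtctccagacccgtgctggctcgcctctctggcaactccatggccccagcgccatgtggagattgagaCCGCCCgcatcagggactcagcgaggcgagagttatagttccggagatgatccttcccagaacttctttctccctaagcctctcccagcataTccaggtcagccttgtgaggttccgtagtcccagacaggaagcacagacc
Gm35722, chr10:100741586-100741885, minus strand: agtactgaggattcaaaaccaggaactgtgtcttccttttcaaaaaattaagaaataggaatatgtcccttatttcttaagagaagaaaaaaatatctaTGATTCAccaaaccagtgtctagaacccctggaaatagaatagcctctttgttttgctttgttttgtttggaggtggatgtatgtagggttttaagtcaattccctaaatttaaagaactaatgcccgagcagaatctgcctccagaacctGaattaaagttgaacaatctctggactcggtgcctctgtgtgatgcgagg

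Among these windows, that of 4933432K03Rik held 3 CCAAT boxes, with first bases 50, 34 and 11 bases before the start. The windows of 2900052N01Rik, G630093K05Rik and LOC100862268 held 1 CCAAT box each. The window of 6330415G19Rik held a CCAAT box and a GC box, that of Gm35722 held an AP-1 site, and those of D830013O20Rik and Gm12532 held none of the motifs searched. A match is only a string of letters.

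The depth of the libraries was uneven. Per the authors' header, control 1 held 24.9 M tags, control 2 held 26.0 M, Fgf13cko 1 held 16.8 M and Fgf13cko 2 held 13.1 M, of which 2.78, 3.25, 2.55 and 2.63 M lay in nuclear regions. Mitochondrial regions took 23.4% and 27.0% of control tags against 9.54% and 9.19% of Fgf13cko tags, which cannot be told apart from genotype. The Fgf13cko pair differed more than the control pair (r = 0.876 against 0.959 between log2 counts across regions, chi-square per degree of freedom 5.59 against 1.68), so neither pair was merged. None of the 4 regions assigned to Fgf13 passed the test, and the position of the floxed exon is not in the labels, so they are no check of the genotype. All 8 progenitor markers searched, Nes, Sox2 and Pax6 among them, had a tested start-site region, against 3 of 5 neuronal, 2 of 4 astrocyte, 2 of 4 oligodendrocyte, 1 of 5 microglial, 1 of 4 endothelial and 1 of 4 fibroblast markers, and none of these regions passed the test. Of all tested coding start sites 1.13% rose and 0.681% fell, so few calls are left to so short a list. Nes had 78.8 and 73.2 against 131 and 121 (log2 fold change 0.73, adjusted p = 0.0608), Fabp7 had 196 and 252 against 414 and 344 (0.76, adjusted p = 0.0636), and Sox2 and Pax6 had log2 fold changes of -0.04 and -0.01. The microglial marker P2ry12 had 39.4 and 27.2 against 11.5 and 21.2 (log2 fold change -1.01, adjusted p = 0.301).

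The start sites of non-coding RNA genes held 63912, 75993, 59691 and 55309 tags in control 1, control 2, Fgf13cko 1 and Fgf13cko 2. These were 2.30%, 2.34%, 2.34% and 2.10% of nuclear region tags. Set against all tags at coding or non-coding starts, the share was 4.07% and 4.06% in the controls, against 4.21% and 4.18% in the Fgf13cko libraries. The median member held 100, 115, 92.5 and 91.5 tags, and its width had a median of 974 bp (232 to 3359 bp). Each of the 459 members overlapped a peak in each of the 4 peak lists, with a median of the strongest peak's fold enrichment, the authors' own value, of 5.14, 5.42, 5.17 and 5.07. The authors annotated 333 members as promoters, 61 as non-coding exons, 56 as introns, 6 as exons and 3 as transcript ends. RefSeq listed 458 of the 459 genes, 445 of them as long non-coding RNAs. It listed 7 as protein-coding: BC029722, 0610012G03Rik, Gm11549, 1500011K16Rik, Gm8773, 1810058I24Rik and Gm10033, and none of these 7 passed the test in either direction. Rmrp and Rpph1, the RNA parts of RNase MRP and RNase P, and Scarna2, a small Cajal body RNA, were the structured RNAs RefSeq lists under their own types. RefSeq also listed Gm38671 as a microRNA, which its name did not show, and Emx2os and Nespas as antisense RNAs.

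All 459 members were tested, and 24 (5.23%) rose and 8 (1.74%) fell in Fgf13cko at an adjusted p below 0.05 (edgeR's quasi-likelihood test, Benjamini-Hochberg over 28801 regions). The background was 6.20% risen and 1.64% fallen among all tested regions, and 1.13% risen and 0.681% fallen among 10863 tested start sites of protein-coding genes. The members' shares thus stood near those of all regions and above those of coding starts. The difference from coding starts was not tested. The median log2 fold change of the members was -0.04, against -0.07 for coding starts and 0.00 for all regions, with 216 members above 0 and 243 below. The spread was wider at the members (SD 0.53 on the log2 scale) than at coding starts (SD 0.39). It was narrower than over all tested regions (SD 0.62). At 238 members (51.9%) the 2 groups' normalised counts did not overlap, against 53.7% of all tested regions and 48.5% of coding starts. The numbers of calls moved strongly with single libraries left out, among the members and also over all tested regions. The members' median log2 fold change was -0.01 without control 1, -0.02 without control 2, -0.15 without Fgf13cko 1 and 0.02 without Fgf13cko 2. Over all tested regions the median was 0.02, 0.00, -0.01 and -0.02 in the same order. The scaling also moved the split, to 32 rises (6.97%) and 23 falls (5.01%) with a loess offset, against 7.28% and 4.02% of all tested regions. With library sizes alone, mitochondrial regions included, it moved to 335 (73.0%) and 1 (0.218%), against 61.3% and 0.208% of all tested regions. The median of all regions then moved to 0.97. Library sizes of nuclear regions alone gave 20 rises (4.36%) and 8 falls (1.74%), against 5.50% and 1.88% of all tested regions. The median of all regions was then -0.06. Leaving out either Fgf13cko library left only the closer control pair to give the spread. Calls in those fits are thus no check of the 24 rises and 8 falls. With each library left out in turn, the log2 fold change was -2.11 to -1.99 at 2900052N01Rik. It was 1.72 to 2.16 at 4933432K03Rik and 1.65 to 1.80 at BC064078. These members do not stand for all calls. The range was wider at some, as with -2.61 to -1.41 at Gm31592 and 0.92 to 1.53 at 2610203C22Rik. At 5330413P13Rik it was narrow, 1.51 to 1.58.

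**Figure D1:**
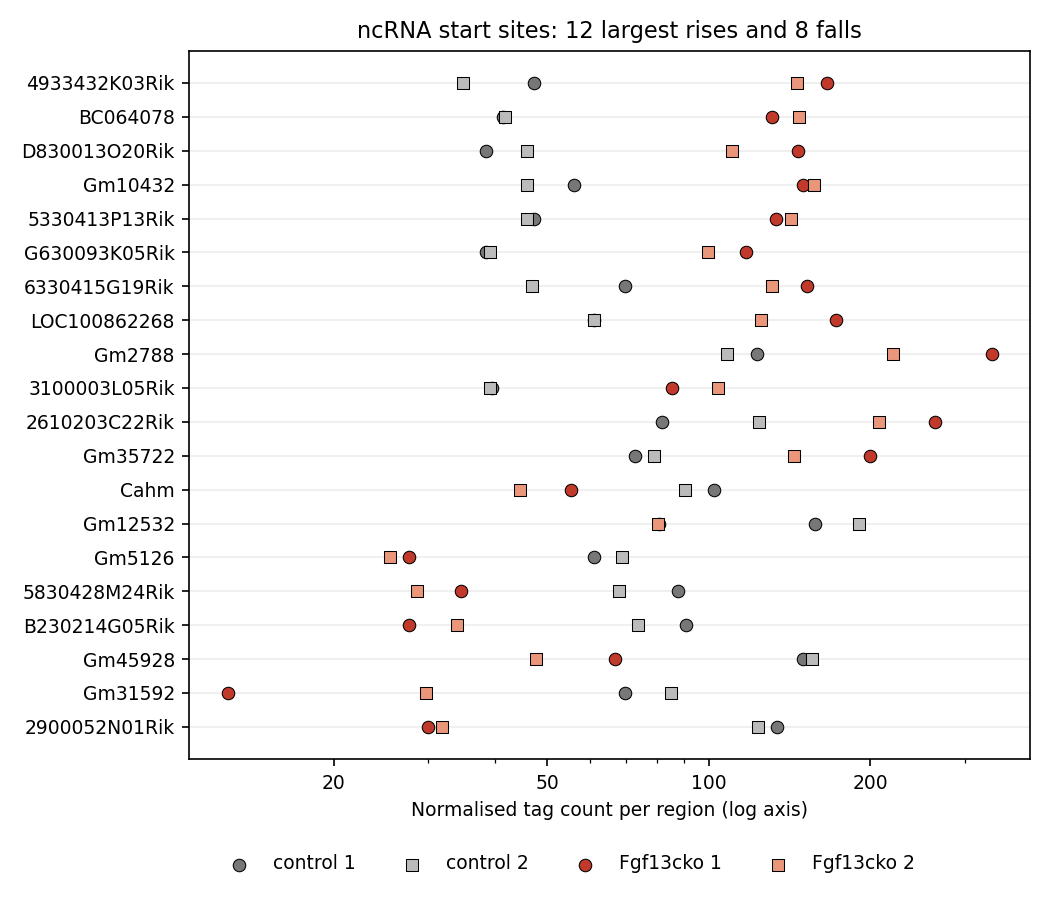
Normalised tag count (log axis) in each of the 4 libraries for the 12 members with the largest rises and all 8 members that fell, ordered by fold change, with circles for replicate 1, squares for replicate 2, grey for control and red for Fgf13cko. In each row both Fgf13cko points lie on one side of both control points, as they did for all 32 called members. The rows were picked by the test, so this separation follows largely from that choice and is no further support. The groups did not overlap at 53.7% of all tested regions.

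The largest rise was at 4933432K03Rik, a long non-coding RNA gene of unknown function 52.3 kb from the coding gene Usp31 (region chr7:121589173-121590222, annotated as promoter). Its normalised count was 47.3 in control 1, 34.9 in control 2, 166 in Fgf13cko 1 and 146 in Fgf13cko 2, the order kept below. Both Fgf13cko values stood far above both controls, with a log2 fold change of 1.93 (SE 0.23, adjusted p = 0.00442). The authors' fold enrichment of its peak was 3.47 and 3.30 in the control pair against 6.16 and 5.74 in the Fgf13cko pair. This gene and 3100003L05Rik lie on the distal part of chromosome 7, where accessibility over all 755 tested regions from 100 Mb on had a median log2 fold change of 0.38, with 13.1% risen, against 0.09 and 7.10% for the 1113 regions below 100 Mb. The part of that shift in these results was not tested. Of the 10 members in the distal stretch 2 rose, and off chromosome 7 20 of 436 members rose and 8 fell.

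BC064078, beside the C-type lectin gene Clec2g on chromosome 6 (chr6:128992400-128993427), had counts of 41.4 and 41.7 in the control pair against 131 and 147 in the Fgf13cko pair. The controls differed by under 1 count, and the log2 fold change was 1.74 (SE 0.22, adjusted p = 0.00445). D830013O20Rik, 47.4 kb from the amino acid transporter gene Slc38a6 (chr12:73408644-73410129), had 38.4 and 45.9 against 146 and 110, a log2 fold change of 1.60 (SE 0.25, adjusted p = 0.00837). Gm10432, 24.1 kb from Ttc7b, had 56.2 and 45.9 against 150 and 157 (log2 fold change 1.59, SE 0.21). 5330413P13Rik, on chromosome 2 next to the endogenous retroviral gene Erv3, had 47.3 and 45.9 against 134 and 142 (log2 fold change 1.56, SE 0.21). In each of these 4 members both Fgf13cko values were above both controls.

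G630093K05Rik lies alone on chromosome 13, and its nearest coding gene, 351 kb away, is Id4, an inhibitor of basic helix-loop-helix factors that is active in neural progenitors. Its counts were 38.4 and 39.1 in the control pair against 118 and 99.7 in the Fgf13cko pair, a log2 fold change of 1.48 (SE 0.24, adjusted p = 0.00908). The Id4 start site did not pass the test, with a log2 fold change of -0.38 (SE 0.20, adjusted p = 0.296). LOC100862268 starts inside Ank2, which encodes the membrane scaffold ankyrin-B, and had 61.1 and 61.3 in the controls against 173 and 125 (log2 fold change 1.28, SE 0.23, adjusted p = 0.0136). One of 3 Ank2 start-site regions, 164 kb away, also passed the test, with 156 and 163 against 339 and 298 and a log2 fold change of 0.996 (SE 0.18, adjusted p = 0.0149). The other two had log2 fold changes of 0.36 and 0.26. Over 11 called members for which a start site of the host or nearest coding gene had been counted as a separate region, that Ank2 region was the 1 of 15 such coding regions that passed. Of all tested coding starts 1.13% rose and 0.681% fell, so 15 regions leave few calls.

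Another 4 named rises had log2 fold changes below 1.30. 6330415G19Rik, 6.19 kb from the zinc finger gene Zfp213, had 70.0 and 46.8 against 152 and 132 (log2 fold change 1.29). 3100003L05Rik, far from any coding gene on distal chromosome 7, had 39.4 and 39.1 against 85.3 and 104 (log2 fold change 1.27). 2610203C22Rik, 3.13 kb from the neurogenesis gene Vxn, had 81.8 and 124 against 264 and 208 (log2 fold change 1.19). Gm35722, on chromosome 10, had 72.9 and 79.1 against 200 and 144 (log2 fold change 1.17). The controls of 2610203C22Rik and 6330415G19Rik were further apart than those of the other members named so far, but still below both Fgf13cko values.

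The largest fall was at 2900052N01Rik on chromosome 9 (chr9:46913211-46913845, annotated as promoter), 85.2 kb from the nearest coding gene. Its count was 134 and 123 in the control pair against 30.0 and 31.8 in the Fgf13cko pair, a log2 fold change of -2.05 (SE 0.23, adjusted p = 0.00385). The 2 groups were far apart and each pair was close. The authors' fold enrichment of its peak was 7.49 and 7.72 in the control pair against 3.98 and 3.66 in the Fgf13cko pair. Gm31592 on chromosome 10, 707 kb from any coding gene, had 70.0 and 85.1 against 12.7 and 29.7 (log2 fold change -1.85, SE 0.39, adjusted p = 0.0241), with the Fgf13cko libraries well apart from each other.

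Gm12532, 39.9 kb from the cytokine gene Il21, had 158 and 191 in the control pair against 80.7 and 80.6 in the Fgf13cko pair (log2 fold change -1.11, SE 0.20, adjusted p = 0.0141). B230214G05Rik had 90.7 and 74.0 against 27.7 and 33.9 (log2 fold change -1.41, SE 0.28). 5830428M24Rik had 87.7 and 68.1 against 34.6 and 28.6 (log2 fold change -1.30, SE 0.29). Gm5126, on the X chromosome like Fgf13 and nearest to Dmrtc1a, had 61.1 and 68.9 against 27.7 and 25.5 (log2 fold change -1.29, SE 0.30, adjusted p = 0.0349). In each of these 4 members both Fgf13cko values were below both controls. Among the 12 largest rises and the 8 falls, the calls of 5830428M24Rik, Gm5126, Cahm and 3100003L05Rik ended with the DESeq2 Wald test, at adjusted p = 0.0769, 0.113, 0.166 and 0.0538, and that of Gm5126 also with limma-voom, at 0.0566.

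A region can serve a coding gene as well. Of the 459 members, 177 held an end of a coding gene's RefSeq span or were annotated by the authors as a coding gene's promoter, and 282 did neither. Of the 177 shared regions 5 rose and 2 fell (median log2 fold change -0.11), and of the 282 others 19 rose and 6 fell (median 0.00). These were 2.82% and 1.13% of the shared regions and 6.74% and 2.13% of the others. Among all tested regions the shares were 6.20% and 1.64%. The shared regions were more open, with a median normalised count of 142 against 73.9. The change at a shared region cannot be assigned to either gene. Gm2788 shares its region with E2f8, an atypical E2F repressor of the cell cycle, and had 123 and 108 in the controls against 337 and 221 in Fgf13cko (log2 fold change 1.27, SE 0.24, adjusted p = 0.0160). The 4 other shared rises were 5930412G12Rik at Fzd10, a Wnt receptor gene (log2 fold change 0.99), Gm29508 at Fam181a (1.06), Ttc39aos1 at Ttc39a (1.02) and Gm13986 at Thbs1, which encodes the secreted matrix protein thrombospondin 1 (0.84).

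The 2 shared falls were at Clcf1 and Qk. Gm45928 shares its region with Clcf1, which encodes a cytokine of the ciliary neurotrophic factor family, and had 150 and 156 in the controls against 66.9 and 47.7 (log2 fold change -1.42, SE 0.23, adjusted p = 0.00918). Cahm shares its region with Qk, which encodes quaking, an RNA-binding protein of glial cells, and had 102 and 90.2 against 55.4 and 44.6 (log2 fold change -0.95, SE 0.24, adjusted p = 0.0482). Both Fgf13cko values lay below both controls at each. The remaining rises lay inside coding genes, as with E130310I04Rik in Mylk, Gm15941 in Ncald, Gm40893 in the potassium channel gene Kcnk10 and B230216N24Rik in Pam, or apart from them, as with BB218582, 1700011C11Rik, D230017M19Rik and Gm32865. Their log2 fold changes ranged from 0.76 at Gm32865 to 1.10 at BB218582.

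The 282 members away from coding gene ends were divided by position. Of 63 inside a coding gene 5 rose and 0 fell (median log2 fold change 0.05). Of 105 within 20 kb of one 5 rose and 0 fell (median -0.05). From 20 to 100 kb, 4 rose and 4 fell of 79 (median 0.06). Beyond 100 kb, 5 rose and 2 fell of 35 (median 0.30), which were 14.3% and 5.71%. Among all tested regions 6.20% rose and 1.64% fell. Regions more than 1000 bp from the nearest non-coding RNA start had 9.49% risen and 2.39% fallen (median 0.11). Other regions as far from coding genes were not compared. The limits of 20 and 100 kb were chosen with these values in view, and the differences between the groups of members were not tested.

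**Figure D2:**
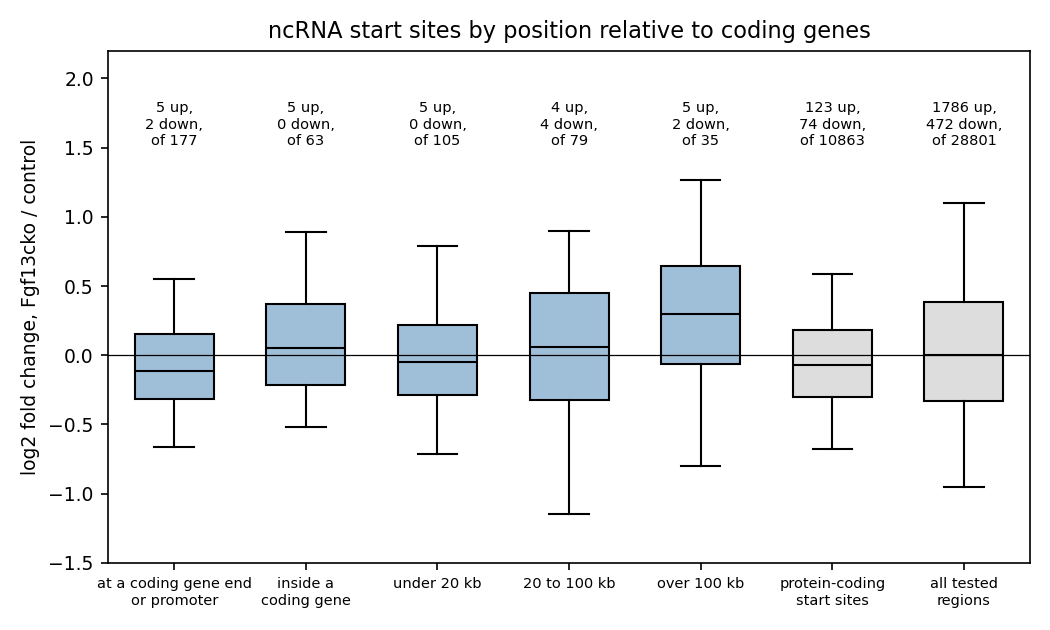
Log2 fold change (Fgf13cko over control) of the members by their position relative to coding genes (blue), beside coding start sites and all tested regions (grey), with boxes from the lower to the upper quartile, a line at the median, whiskers from the 5th to the 95th percentile, and the numbers risen and fallen above. The members beyond 100 kb of a coding gene have the highest median, 0.30, and those at coding gene ends or promoters the lowest, -0.11.

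Width and level moved with the result. In the narrowest quartile of members (115 regions, median 649 bp) 3 rose and 4 fell with a median log2 fold change of -0.22. In the widest quartile (115 regions, median 1664 bp) 7 rose and 1 fell with a median of 0.07. Coding start sites in the same width ranges gave medians of -0.32 and 0.06, with 5 risen and 32 fallen of 2366 narrow ones and 54 risen and 10 fallen of 2899 wide ones. By level, the lowest quartile of members gave 0 rises and 3 falls, the second quartile 10 and 3, the third 12 and 2 and the highest 2 and 0. Coding start sites in the same level ranges also had most rises in the middle. From the lowest range up they gave 2 rises and 4 falls of 2012, 43 and 25 of 3209, 52 and 21 of 2868, and 26 and 24 of 2774. The part of width in the calls was not tested.

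**Figure D3:**
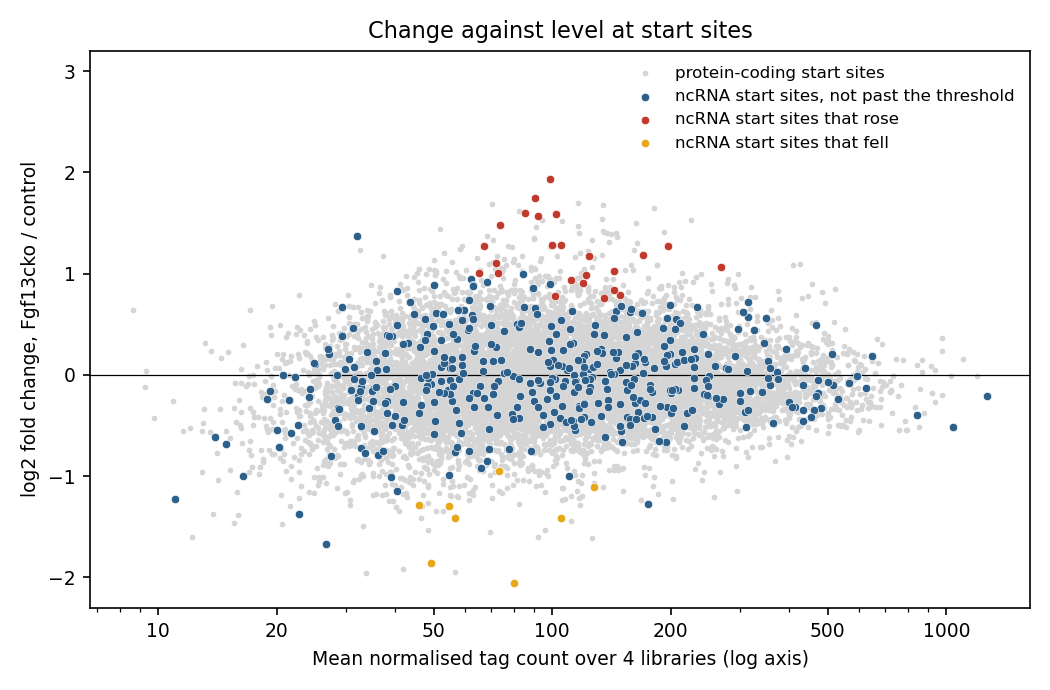
Log2 fold change (Fgf13cko over control) against the mean normalised tag count over the 4 libraries (log axis) for 459 non-coding RNA start sites, coloured by call, over the tested coding start sites in grey. Of the 24 members that rose, 10 lie in the lower and 12 in the upper of the middle quartiles of level and 2 in the highest, and 7 members beyond a log2 fold change of 1 in size did not pass the test. Coding starts likewise had 43 and 52 rises in the middle ranges, against 2 in the lowest and 26 in the highest.

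Of 31 members with a log2 fold change beyond 1 in size, 24 passed the test and 7 did not. Among the 7, A430035B10Rik on chromosome 6 had 265 and 231 in the controls against 53.1 and 151 in Fgf13cko (log2 fold change -1.27, SE 0.40, adjusted p = 0.104). Its groups did not overlap, but its Fgf13cko libraries differed more from each other than the controls did. Gm16063 on chromosome 5 had 47.3 and 34.0 against 10.4 and 14.9 (log2 fold change -1.67, adjusted p = 0.0736). 2410018L13Rik on chromosome 12 was the 1 of the 7 above 0, with 16.8 and 18.7 against 36.9 and 55.2 (log2 fold change 1.37, adjusted p = 0.0867).

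By kind of gene name, of 250 RIKEN genes 12 (4.80%) rose and 3 (1.20%) fell, and of 119 predicted genes 9 (7.56%) rose and 4 (3.36%) fell, against 5.23% and 1.74% of all members. These shares were not tested against each other. Of 23 antisense and opposite-strand genes 1 rose, and of 12 genes named by a clone accession 1 rose. Of 37 genes with other names 1 rose and 1 fell (Cahm). The risen one, BB218582, also has a name like a clone accession, with a prefix that the sorting of names did not include. The 14 hosts of small nucleolar RNAs, the 3 small structured RNA genes and Scarna2 gave no call. The most open members were 4930526I15Rik, with 1335, 1383, 1389 and 967 in control 1, control 2, Fgf13cko 1 and Fgf13cko 2, and 4932412D23Rik at Zbtb20, with 1208, 1230, 911 and 800. The groups overlapped at 4930526I15Rik and not at 4932412D23Rik, and neither passed edgeR's test (log2 fold changes -0.21 and -0.51, adjusted p = 0.666 and 0.178). 4932412D23Rik was called lower by DESeq2 (adjusted p = 0.0240), with a loess offset, with only regions averaging 50 counts or more, and without either Fgf13cko library.

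The start sites of well-known non-coding RNAs were read as a list. Of 78 names searched 36 were members, and 0 rose and 0 fell by edgeR's test, against 6.20% and 1.64% of all tested regions, shares that leave few calls to a list of this length. There were 5 at an unadjusted p below 0.05, a lowest adjusted p of 0.0933 and log2 fold changes from -0.76 to 0.57 (median -0.11). DESeq2's test called 0 of the 36 as well, against 4.12% risen and 1.10% fallen of all tested regions. A loess offset called 1 (Dleu2, lower in Fgf13cko), against 7.28% and 4.02%. Library sizes alone, with their shift of all regions, called 30, against 61.3% and 0.208% of all tested regions. At 20 of the 36 (55.6%) the groups' normalised counts did not overlap, near the share in all regions. The smallest p was at Snhg5, a host of small nucleolar RNAs on chromosome 9, with 158 and 158 in the control pair against 236 and 229 in the Fgf13cko pair (log2 fold change 0.56, SE 0.17, adjusted p = 0.0933). Snhg3 had 71.0 and 71.5 against 43.8 and 40.3 (log2 fold change -0.76, SE 0.26, adjusted p = 0.116). Dancr, which hosts a small nucleolar RNA and is active in undifferentiated cells, had 173 and 195 against 125 and 137 (log2 fold change -0.49, adjusted p = 0.153). At these 3 genes the groups did not overlap although the test was not passed. Over all 14 hosts the median log2 fold change was -0.18, and Gas5, with 350 and 353 against 321 and 231, and Snhg8, with 438 and 524 against 572 and 359, were among the most open. The region of Gas5 also held an end of the coding gene Zbtb37.

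The nuclear RNAs Malat1 and Neat1 lie next to each other on chromosome 19. Malat1 had 175 and 218 in the controls against 155 and 138 (log2 fold change -0.43, SE 0.20, adjusted p = 0.235), with both Fgf13cko values lower. Neat1 had 520 and 480 against 537 and 329 (log2 fold change -0.21, SE 0.25, adjusted p = 0.683), with Fgf13cko 1 above and Fgf13cko 2 below both controls. Among imprinted loci, Kcnq1ot1 had 116 and 104 against 149 and 142 (log2 fold change 0.40, adjusted p = 0.246), and it lies in the distal part of chromosome 7 described above. Nespas, antisense to Gnas, had 122 and 109 against 210 and 133 (log2 fold change 0.57, adjusted p = 0.211). Airn had 49.3 and 34.0 against 69.2 and 46.7, and Peg13 had 169 and 157 against 182 and 136, and at both the groups overlapped.

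Near developmental transcription factor genes, Pantr1, which lies beside Pou3f3, had 522 and 514 in the controls against 457 and 320 (log2 fold change -0.42, adjusted p = 0.310). Emx2os, opposite the cortical patterning gene Emx2, had 210 and 268 against 240 and 198 (log2 fold change -0.13, adjusted p = 0.767). Miat, known from neural progenitors and retina, had 88.7 and 53.6 against 50.7 and 36.1 (log2 fold change -0.71, adjusted p = 0.248). The controls of Miat were far apart from each other. On the X chromosome, Jpx had 43.4 and 52.7 against 68.0 and 72.1 (log2 fold change 0.54, adjusted p = 0.254) and Firre had 98.6 and 91.9 against 96.9 and 82.7 (log2 fold change -0.08). Rmrp had 258 and 248 against 194 and 204 (log2 fold change -0.35, adjusted p = 0.288), and Rpph1 had 199 and 230 against 212 and 178. The regions of Pantr1, Emx2os, Rmrp and Rpph1 also held an end of a coding gene (Pou3f3, Emx2, Ccdc107 and Parp2). Their values cannot be assigned to either gene.

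**Figure D4:**
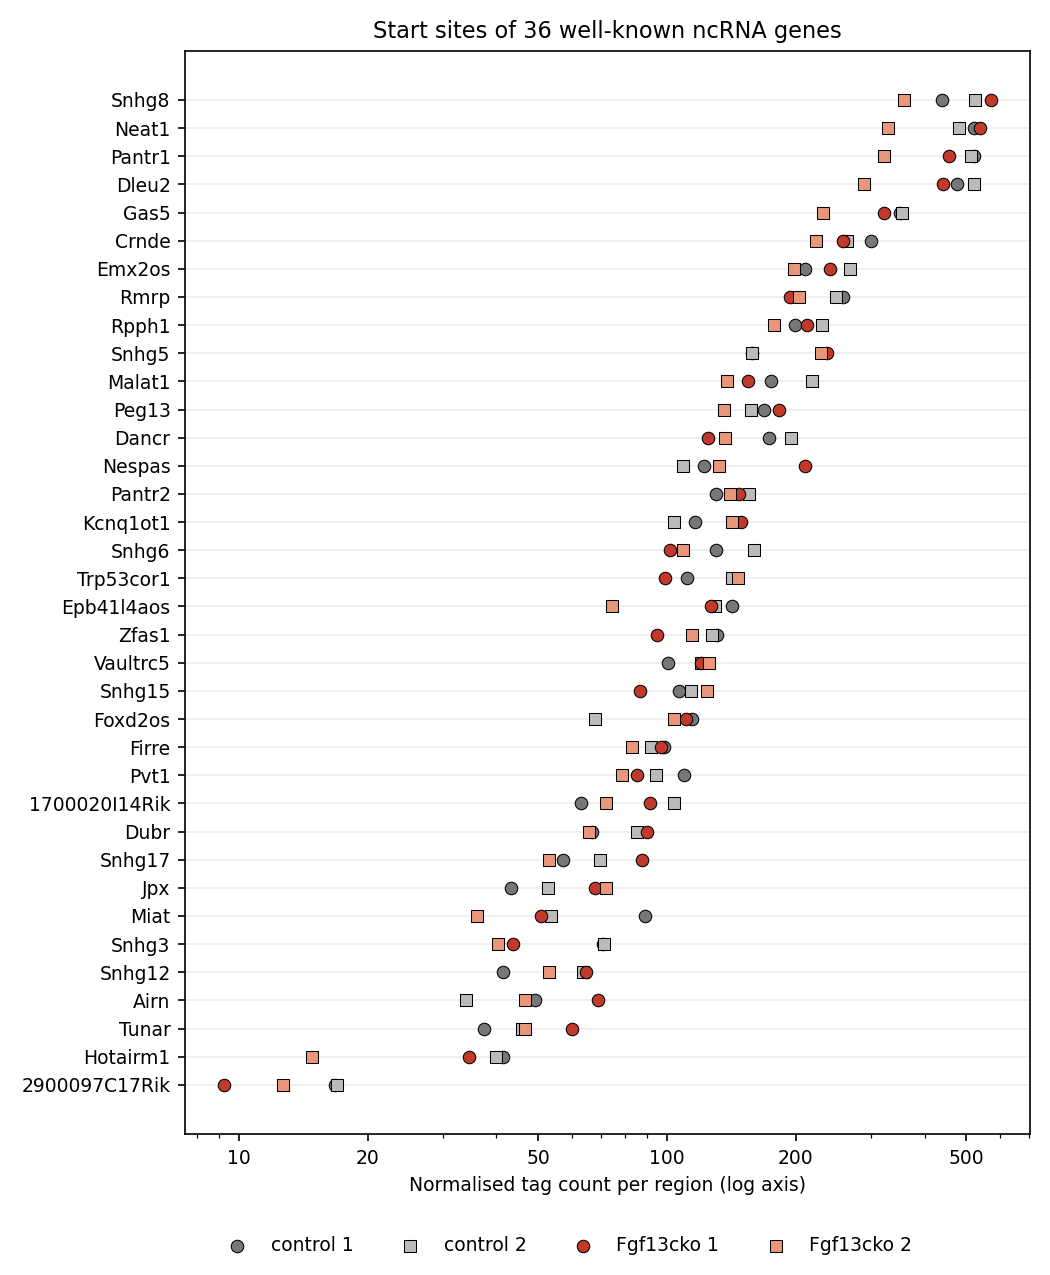
Normalised tag count (log axis) in each of the 4 libraries for the start sites of 36 well-known non-coding RNA genes, ordered by mean count, with circles for replicate 1, squares for replicate 2, grey for control and red for Fgf13cko. In 20 of the 36 rows the groups do not overlap, and none passed the test. Snhg5, with 158 and 158 against 236 and 229, has the smallest p.

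Start sites of genes for proteins that work with these RNAs were read beside them. Of 36 such genes 32 had a tested start-site region, and 0 rose and 0 fell (median log2 fold change -0.07). Among all tested coding starts 1.13% rose and 0.681% fell, shares that leave few calls to a list of this length. The 32 were 9 for small nucleolar ribonucleoproteins such as Fbl and Dkc1, 10 for small nuclear RNA transcription and processing such as Snapc4 and Ints9, 4 for paraspeckles such as Sfpq and Nono, 4 for the 7SK complex such as Larp7, and 5 for X inactivation such as Spen. Fbl, the methyltransferase of box C/D particles, had 209 and 188 in the controls against 279 and 231 (log2 fold change 0.36, adjusted p = 0.304). Sfpq had 141 and 155 against 159 and 161 (log2 fold change 0.11).

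Members had CpG-rich start windows. The RefSeq promoter table, which is not complete, held a window for 377 members, and for 341 the RefSeq start lay inside the region. Their median GC content was 60.3% and their median observed-to-expected CpG ratio 0.74, against 48.3% and 0.24 for 11588 promoters of long non-coding RNA genes in the table and 56.3% and 0.57 for 21263 coding promoters. The members were open in all 4 libraries, while the table's promoters were taken whether open or not. Open coding starts alone were not measured, and the part of openness in these gaps was not tested. Members at coding gene ends had medians of 66.3% and 0.84, and the others 55.5% and 0.61. The 14 risen members with a window had medians of 50% and 0.41, the 5 fallen ones 54.7% and 0.21, and the 322 members past no threshold 61.0% and 0.75. Among members away from coding gene ends alone, the median CpG ratio was 0.41 for 12 risen, 0.20 for 4 fallen and 0.65 for 188 others. These medians of few windows were not tested.

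The motifs searched on both strands were the TATA box (TATAAA), the GC box (GGGCGG), the CCAAT box (CCAAT), the ETS site (CCGGAAGT), the CRE (TGACGTCA), the AP-1 site (TGANTCA), the octamer (ATGCAAAT) and the NRF1 site, and none of them contains another. The GC box was found in 58.7% of the 341 windows, against 35.7% of all 32851 promoters and 16.3% of those of long non-coding RNA genes. The TATA box was found in 5.87%, against 13.6% and 15.5%. Here too the promoters compared were taken whether open or not. The AP-1 site was found in 5 of 14 risen windows, against 0 of 5 fallen ones, 5.28% of windows past no threshold, 6.45% of all 341, and 7.81% of all promoters. Those 5 were the windows of Gm35722, Ttc39aos1, Gm13986, Gm32865 and B230216N24Rik, of which Ttc39aos1 and Gm13986 share a region with a coding gene. Among windows away from coding gene ends, the AP-1 site was found in 25% of 12 risen ones, against 7.45% of 188 past no threshold. The octamer was found in 2 of the 14 risen windows and 0 of the 5 fallen ones, against 1.55% of windows past no threshold. The CCAAT box was found in 6 of the 14 and 2 of the 5, and the CRE in 1 of the 14 and 0 of the 5. The GC box was found in 3 of the 14 risen windows and 2 of the 5 fallen ones. These shares are descriptions of few windows and were not tested.

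At the limit of 1000 bp, the outermost members were Carmn at -1000 bp, with 26.6, 40.8, 6.92 and 40.3 in control 1, control 2, Fgf13cko 1 and Fgf13cko 2, and Gm40893 at 991 bp, with 76.9, 72.3, 127 and 129. Just outside, 1700116B05Rik at 1001 bp had 47.3, 28.9, 80.7 and 40.3, and Gm13710 at 1006 bp had 13.8, 13.6, 13.8 and 25.5. Regions more than 1000 bp from the nearest start of a non-coding RNA gene numbered 2465 tested, of which 234 (9.49%) rose and 59 (2.39%) fell, with a median log2 fold change of 0.11. The 85 start sites of microRNA-named genes gave 4 rises and 1 fall.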

How the data were processed

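Chromatin accessibility was measured by ATAC-seq in 2 control and 2 Fgf13cko neurosphere cultures, grouped by their titles. The authors deposited 1 table of 29121 merged regions with estimated counts, which per the file headers are raw HOMER tag counts per region, not normalised. All are multiples of 0.5 and were rounded to whole numbers before testing. The authors also deposited 1 broad peak list per sample. Its fold enrichment is a ratio, and its -log10 q-value comes from the authors' peak caller, as the deposited lists are laid out. In each list the lowest -log10 q-value over the members' strongest peaks was between 1.16 and 1.42. HOMER, MACS2, Bowtie2, Picard and DESeq2 are listed in the submitters' processing notes, with mm10 and without roles. Not given in the sources used here were their versions, the shift for the transposase, the handling of duplicates and the use of strand. Every region of the table overlaps a peak in all 4 libraries, so a start site open in 1 group only is outside the table.

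Groups were compared with edgeR 4.0.16 in R 4.3.3 (TMM, filterByExpr, robust glmQLFit and glmQLFTest, two-sided) and Benjamini-Hochberg adjustment over 28801 regions, with a threshold of 0.05. Normalised counts are counts divided by the TMM effective library size relative to the mean. The fits were tested on simulated data. Alternatives were RLE, library size or nuclear library size scaling, a loess offset, no filter, a mean of at least 50 counts, DESeq2 1.42.0, limma-voom 3.58.1, a replicate block, each library left out, a distance of at most 500 bp, and members apart from coding genes. RefSeq tables of GRCm38.p6 (mm10) gave gene spans, which carry no strand, and promoter windows. Named members were, by rule, the 12 largest rises and up to 12 largest falls past the threshold, well-known genes, the 3 most open members of each name class and those at the distance limit. Members, lists and classes were chosen with earlier results of these data known.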

Additional observations from a re-analysis of the deposited data

Results flagged for a closer look

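All 29121 regions of the count table overlap a peak in each of the 4 lists, so start sites open in 1 group were looked for in the peak lists. Of 9506 long non-coding RNA genes with a RefSeq start, 146 (1.54%) had a peak over a start in both Fgf13cko libraries and neither control, and 11 (0.116%) had one in both controls and neither Fgf13cko library. Of 17274 coding genes the numbers were 245 (1.42%) and 54 (0.313%). The lists held 38006 and 47148 peaks for the controls and 64954 and 54373 for Fgf13cko, so the number of peaks moved with the groups, and its part in these counts was not tested.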

How the results depend on the processing

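Of the 459 members 24 rose and 8 fell. With RLE factors, nuclear library sizes or no filter the rises were 21, 20 and 24 and the falls 8 each time, and limma-voom gave 30 and 7. Over all tested regions RLE factors, nuclear library sizes and no filter called 5.94%, 5.50% and 6.28% risen and 1.86%, 1.88% and 1.66% fallen. Of all tested regions limma-voom called 7.59% risen and 1.81% fallen. Within 500 bp of the start 21 rose and 7 fell, and without regions at coding gene ends or promoters 19 and 6. DESeq2 called 13 rises, all among the 24, and 7 falls, of which 5 were among the 8. Library sizes alone, which moved the median of all regions to 0.97, gave 335 rises and 1 fall. A loess offset gave 32 and 23, and a mean of at least 50 counts, with 361 members tested, gave 31 and 17. Over all tested regions the loess offset called 7.28% risen and 4.02% fallen. The mean of at least 50 counts called 10.9% and 4.65% of them, and DESeq2 called 4.12% and 1.10%. The cause was not tested for any of these settings. Leaving out each library in turn gave 2 to 80 rises and 1 to 69 falls, with a lone library assumed to vary like the other group. Same-numbered libraries share only a number (correlation of their deviations -0.23). A replicate block gave 29 rises (6.32%) and 10 falls (2.18%), against 7.31% and 2.44% of all tested regions. The crossed replicate block, chosen after seeing the data, gave 34 (7.41%) and 19 (4.14%), against 9.35% and 3.90% of all tested regions. Under library sizes alone, 1 of the 8 falls was called (2900052N01Rik) and Cahm stood at a log2 fold change of 0.01, against -0.95. With the shift of all regions taken off, and under the other settings apart from the crossed block, for which single members were not compared, no named member that passed the test changed sign. At the median of about 100 tags per member, counting error alone limits what small differences can be seen.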
